A study of Mus musculus with 10 samples.

Results

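Cytosolic ribosomal protein genes encode the protein subunits of the ribosomes that translate nuclear mRNA. The set was chosen by name, as the genes called Rpl, Rps or Rplp followed by a number and, in some cases, a paralog suffix, without the S6 kinases. It held 79 of the 12160 genes in the deposited table. Of these, 31 belong to the small (40S) subunit and 48 to the large (60S) subunit, and 5 are paralogs of a main gene (Rpl7l1, Rpl22l1, Rpl36al, Rps4l and Rps27l). Fau, Rpsa and Rps3a1 also encode ribosomal proteins but carry other names, and Rpl29 was not listed in the table.

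RNA was collected from genetically wild type male CD1 mice with pancreatitis, a strain that is outbred and that the sample labels call mixed. All animals had received 4 cycles of caerulein, a cholecystokinin analog that injures acinar cells, at 250 µg/kg. The study gives the recovery time before collection as a range of days, and the time for each library is not known here. Cells of both groups were sorted from 5 mice, 100 for each library. Both groups were Cd45-neg and EpCAM+, and tuft cells were Siglec f+ whereas the non-tuft epithelial cells were Siglec f-neg. Smart-Seq2 libraries of polyadenylated RNA were sequenced from these cells. Uninjured animals were not part of the comparison, the Siglec f-neg gate takes in acinar, ductal and islet cells together, and each library pools its cells, so fewer cells of a type and less RNA per cell cannot be told apart.

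Ribosomes are built in the nucleolus from ribosomal RNA and about equal amounts of each ribosomal protein, and their production takes up much of the biosynthetic capacity of a growing or secreting cell. The mRNAs of most ribosomal proteins begin with a pyrimidine tract at the 5′ end, the TOP motif, through which Larp1 and the mTOR pathway control their translation together. Acinar cells are known for a dense rough endoplasmic reticulum and very high rates of protein synthesis, whereas tuft cells are solitary chemosensory cells. Ribosomal protein mRNAs have also given rise to many processed pseudogenes, intronless copies in the genome that are close to the mRNA in sequence.

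Because this class of genes is known for the pyrimidine tract, the sequence around the start site is shown for the 6 genes that passed the test below and for 4 others described below. Each window holds 10 bases before the start and 20 from it on, from RefSeq promoters on GRCm38.p6, on the strand of the gene. Capitals mark a run of at least 6 C or T letters that begins with C.
Rps2 (chr17:24720053-24720082, plus strand): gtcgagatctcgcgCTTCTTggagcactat
Rpl22l1 (chr3:28805498-28805527, plus strand): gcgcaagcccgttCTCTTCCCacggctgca
Rpl12 (chr2:32961702-32961731, plus strand): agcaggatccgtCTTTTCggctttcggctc
Rpl34 (chr3:130730379-130730408, minus strand): tccctgacgtaCTTCCTgtccggcgccgtc
Rps12 (chr10:23787190-23787219, minus strand): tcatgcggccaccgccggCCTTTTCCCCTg
Rps15a (chr7:118116128-118116157, minus strand): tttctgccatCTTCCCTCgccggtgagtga
Rps27l (chr9:66946076-66946105, plus strand): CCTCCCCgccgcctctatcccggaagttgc
Rpl36al (chr12:69184048-69184077, minus strand): ccgtcgctcaggttcagttccgacttccgc
Rplp0 (chr5:115559457-115559486, plus strand): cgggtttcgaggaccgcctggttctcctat
Rpl26 (chr11:68901556-68901585, plus strand): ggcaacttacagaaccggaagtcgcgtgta

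A tract was present in the windows of all 6 genes that passed the test, where it lay at or after the start, and of Rps27l, where it lay wholly before the start and so outside the mRNA. None was found in the windows of Rpl36al, Rplp0 and Rpl26. The tract was not particular to the genes that passed, since 32 of the 59 ribosomal protein genes with a promoter entry (54.2%) had one somewhere in the same window, as did 22.0% of all 27025 promoters. These 59 are 74.7% of the 79 genes, which is under 80%, so a comparison of the set with other promoters is void. A match is a description of letters at 1 annotated start and was not tested as a control site.

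Most ribosomal protein genes had a lower mean in the tuft libraries than in the others, and few of them passed the test one by one. On the deposited scale, log2(RPKM + 1) after quantile normalization, 74 of 79 had a negative difference of tuft minus non-tuft, beside 49.1% of all 12160 genes. The median difference over the set was -0.81, which is 1.75-fold on the linear scale, and the median over all genes was 0.02. The middle portion of the set, from the lower to the upper quartile, ran from -1.07 to -0.55, and single genes ranged from -2.07 (Rps2) to 1.22 (Rps4l). With limma over all genes and Benjamini-Hochberg adjustment, 6 of the 79 (7.59%) were lower at an adjusted p under 0.05 and 0 were higher, beside 5.55% of all genes lower and 6.19% higher. In this fit the share of the set past the adjusted threshold was near that of all genes, but in other settings it was not. It was 31.6% beside 5.96% of all genes with the trend and robust settings of limma, 39.2% beside 5.23% with 10 in place of 1 added before the log2, and 15.2% beside 7.14% among genes averaging 2 or more on the log2 scale. It was 3.8% beside 4.88% with 0.1 added. At an unadjusted p under 0.05 the set had 35 lower genes (44.3%) and 0 higher, beside 12.2% and 12.9% of all genes. In 23 genes (29.1%) all tuft libraries were below all non-tuft libraries and in 0 above, beside 5.12% and 6.31% of all genes.

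Ribosomal protein genes are abundant, so the same counts were taken, after the values were seen, among the 775 genes whose log2 values averaged 6 or more. This group included 70 ribosomal protein genes. A negative difference was found for 67 of the 70 (95.7%), beside 47.2% of the 775. The groups did not overlap, with tuft lower, for 22 of the 70 (31.4%), beside 13.4%. At the adjusted threshold 6 of the 70 (8.57%) were lower, beside 10.7%. The direction was therefore shared by nearly the whole set. Genes of one library share its cells and its processing and are not independent of one another.

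**Figure D1:**
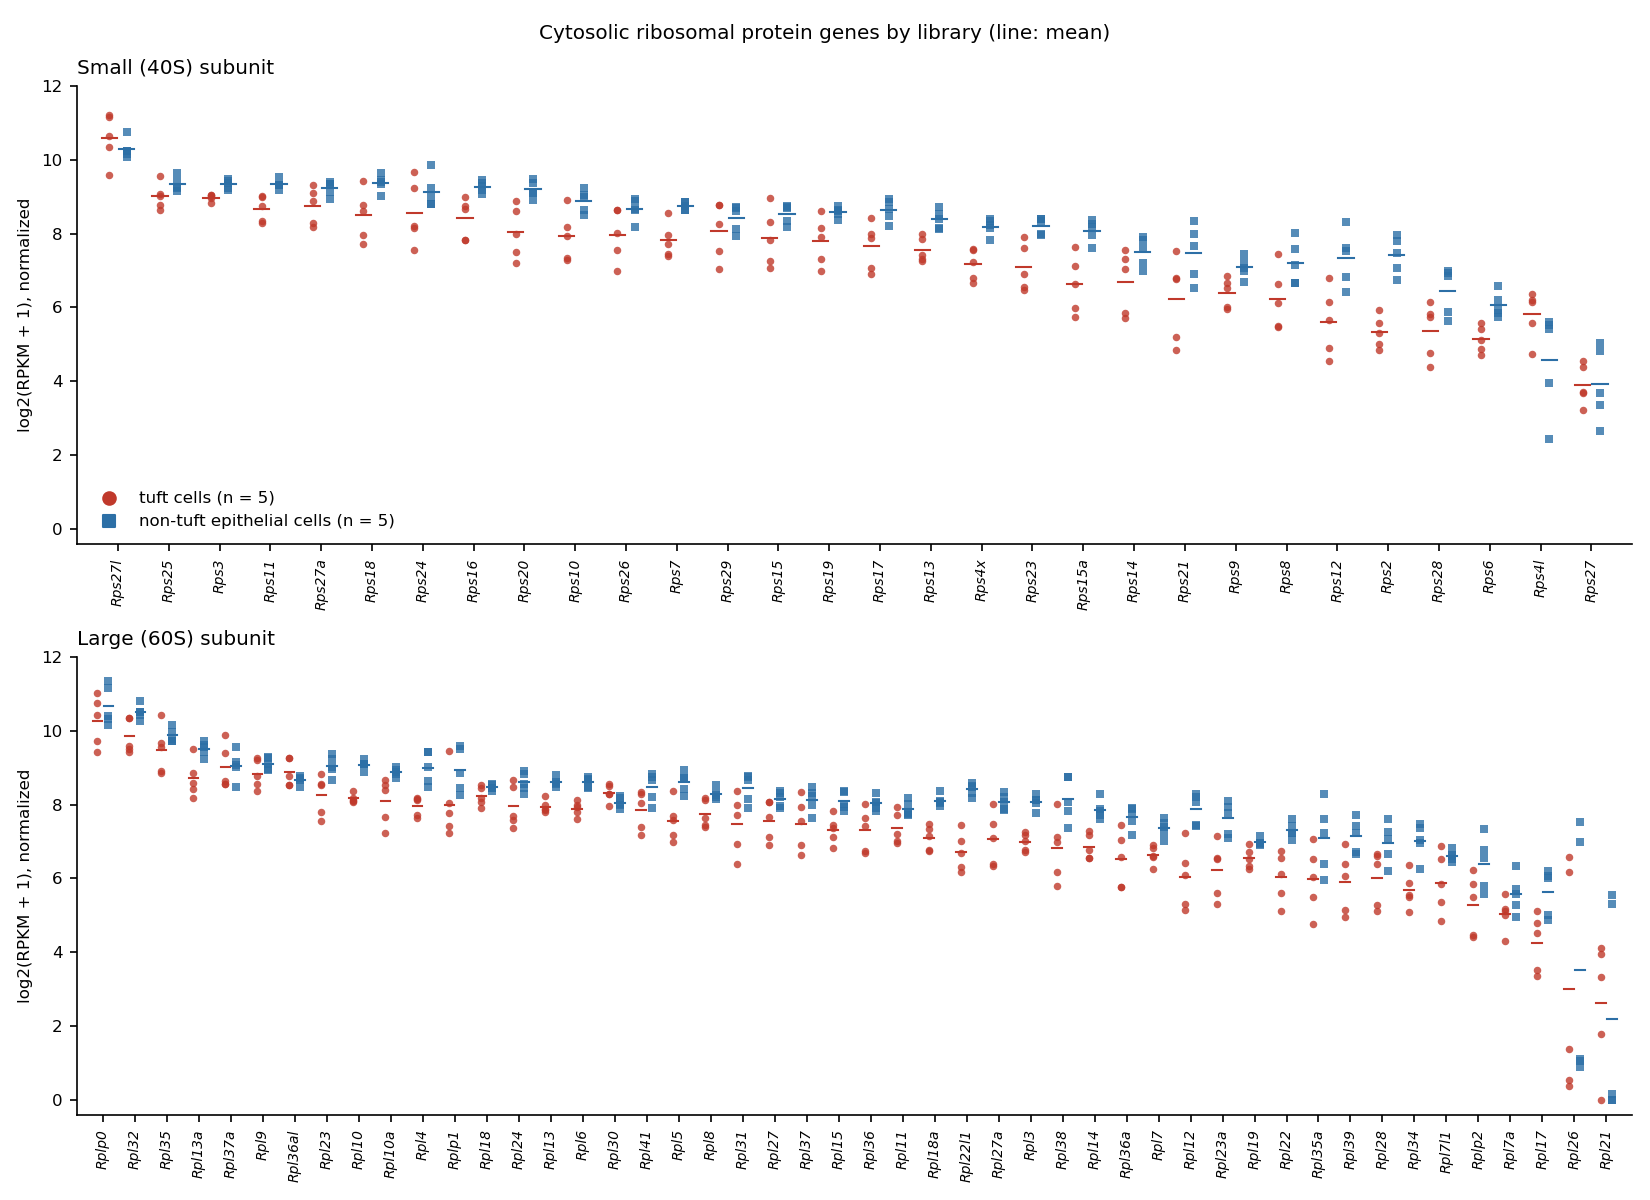
Normalized log2(RPKM + 1) of the ribosomal protein genes, without 1 that is not reported here, in the 5 tuft (circles) and 5 non-tuft (squares) libraries, small subunit above and large subunit below, ordered by mean, with lines at the group means. The tuft mean lies below the non-tuft mean for 73 of the 78 genes drawn, and Rpl26 and Rpl21 spread over several log2 units within each group.

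The 6 genes that passed the test were Rps2, Rps12 and Rps15a of the small subunit and Rpl22l1, Rpl12 and Rpl34 of the large subunit. Rps2, which lies where mRNA enters the small subunit, had log2 values of 5.02, 4.86, 5.92, 5.30 and 5.58 in tuft libraries 1 to 5 and 7.47, 6.74, 7.80, 7.06 and 7.97 in non-tuft libraries 1 to 5. The groups did not overlap. Rps2 was lower by 2.07 on the log2 scale (standard error 0.40, limma adjusted p = 0.00413; exact permutation p = 0.00794, two-sided, the smallest that 5 against 5 libraries allow), or 4.20-fold, and was the 1 ribosomal protein gene past the 4-fold threshold of the study, beside 3.99% of all genes on the lower side and 4.32% on the higher side. Neither p-value takes account of any pairing by mouse. The annotated position of Rps2 is chr17:24855061-24858874 on NCBIM37, the assembly of mm9, on the plus strand.

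Rpl22l1, the paralog of the RNA-binding protein Rpl22, had 7.44, 6.70, 6.17, 7.01 and 6.32 in tuft libraries and 8.60, 8.51, 8.32, 8.47 and 8.19 in non-tuft libraries. All tuft values were below all non-tuft values, and the non-tuft values lay within a narrow range. It was lower by 1.69 (standard error 0.37, limma adjusted p = 0.00959). Rpl12, at the base of the stalk to which elongation factors bind, had 7.24, 6.10, 5.16, 6.43 and 5.30 in tuft libraries and 8.22, 8.29, 7.43, 8.07 and 7.46 in non-tuft libraries. Here too the groups stood apart, with tuft library 1 closest to the non-tuft libraries. Rpl12 was lower by 1.85 (standard error 0.46, limma adjusted p = 0.0193).

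The 3 other calls were weaker, and in each of them the groups overlapped. Rps12 of the small subunit had 6.80, 6.14, 4.90, 5.67 and 4.56 in tuft libraries and 7.61, 8.31, 6.82, 7.52 and 6.42 in non-tuft libraries. Its lowest non-tuft value, in library 5, was below the value of tuft library 1, and it was lower by 1.72 (standard error 0.52, limma adjusted p = 0.0483). Rps15a, also of the small subunit, had 7.65, 6.63, 5.75, 7.13 and 5.99 in tuft libraries and 8.25, 8.37, 7.96, 8.17 and 7.60 in non-tuft libraries. Tuft library 1 was within the non-tuft range and the other tuft libraries were below it, with a difference of -1.44 (standard error 0.44, limma adjusted p = 0.0485). Rpl34 of the large subunit had 5.10, 5.87, 5.51, 6.37 and 5.55 in tuft libraries and 7.38, 7.04, 6.95, 7.49 and 6.26 in non-tuft libraries. Only the pair of tuft library 4 and non-tuft library 5 overlapped, and Rpl34 was lower by 1.35 (standard error 0.40, limma adjusted p = 0.0441). With the replicate number as a block Rpl34 was not called (limma adjusted p = 0.059).

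Rps2 and Rpl22l1 passed the adjusted threshold in all 18 alternative fits fixed for this report, with highest limma adjusted p-values of 0.0127 and 0.0286. These 18 leave out the stricter treat test of limma against a 2-fold change, in which 0 genes of the set were called. Rpl12 passed in 16 of the 18, Rps12 and Rps15a in 8 and Rpl34 in 7, so these 3 rest near the threshold. When each library was centred on the median of the ribosomal protein genes, a setting chosen after seeing the data, none of the 6 passed. Rps2 was then lower by 1.23 (limma adjusted p = 0.103) and Rpl22l1 by 0.84 (limma adjusted p = 0.0989), and 2 genes were higher, Rps4l by 2.07 (limma adjusted p = 0.0457) and Rpl30 by 1.11 (limma adjusted p = 0.0498). This centring moved the median difference over all genes from 0.02 to 0.87. The share of all genes called in this setting is not given, so these counts cannot be set against all genes.

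**Figure D2:**
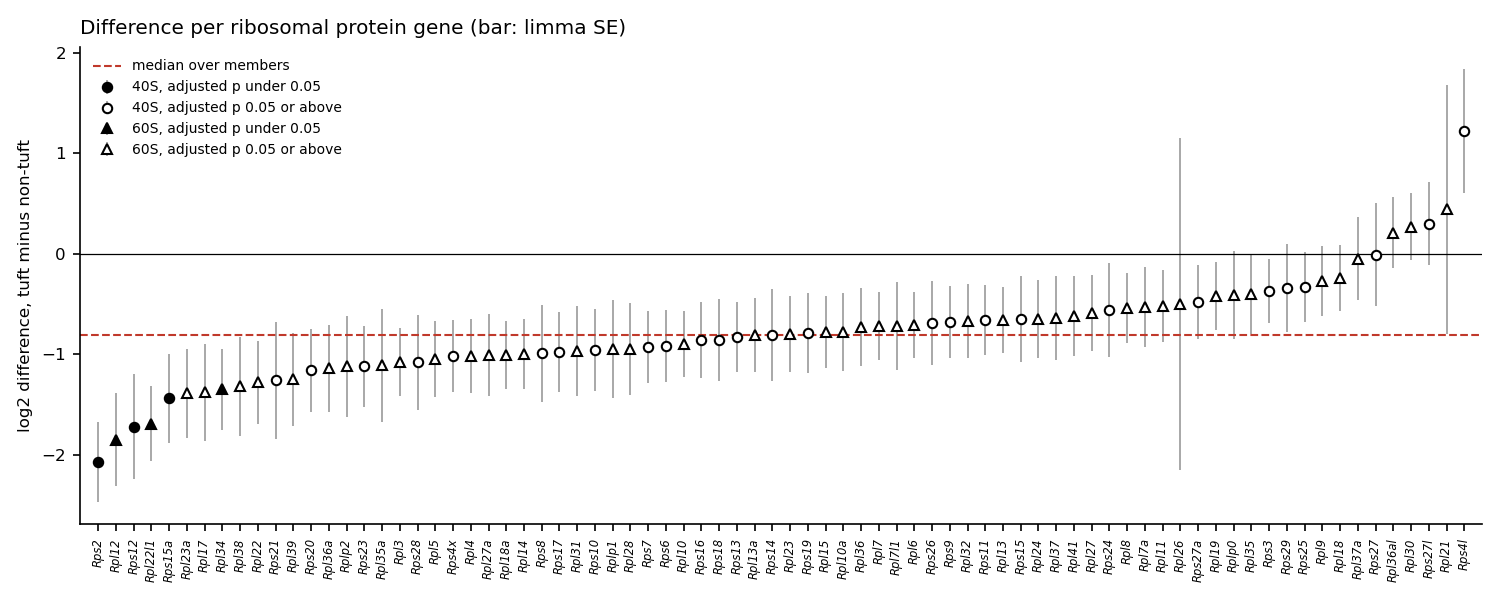
Log2 difference of tuft minus non-tuft for the same 78 ribosomal protein genes, with the limma standard error as bars. Circles are small and triangles large subunit genes, filled symbols have an adjusted p under 0.05, and the dashed line is the median of -0.81. The 6 filled symbols are all at the lower end, and 5 genes lie above 0.

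By subunit, the median difference was -0.86 over the 31 small subunit genes and -0.78 over the 48 large subunit genes. A negative difference was found in 29 of 31 and 45 of 48 genes, beside 49.1% of all genes. In each subunit 3 genes passed the test as lower, beside 5.55% of all genes. Within a library, the median of the small subunit genes was above that of the large subunit genes in all 10 libraries. This gap was 0.12, 0.12, 0.24, 0.21 and 0.34 log2 units in tuft libraries and 0.42, 0.27, 0.10, 0.38 and 0.25 in non-tuft libraries. Its mean was 0.21 in tuft cells (SD 0.09, n = 5) and 0.28 in non-tuft epithelial cells (SD 0.12, n = 5), and the ranges overlapped.

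Rps6 and Rps3 of the small subunit did not pass the test, although their groups did not overlap. Rps6, the substrate of the S6 kinases, had values from 4.71 to 5.58 in tuft libraries and from 5.75 to 6.57 in non-tuft libraries, with a difference of -0.92 (standard error 0.36, limma adjusted p = 0.133). Rps3, at the mRNA entry channel, ranged from 8.82 to 9.05 in tuft and from 9.19 to 9.48 in non-tuft libraries, a small difference of -0.37 without overlap (standard error 0.32, limma adjusted p = 0.532). Rps6 and Rps3 were chosen after their values were seen.

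Among large subunit genes, Rpl10, which joins the ribosome in the last steps of its assembly, varied little between libraries. It had 8.19, 8.38, 8.08, 8.10 and 8.12 in tuft libraries and 9.09, 8.88, 9.24, 9.10 and 9.09 in non-tuft libraries, with no overlap. Its difference was -0.90 (standard error 0.33, limma adjusted p = 0.0977), where limma moves the spread of each gene toward that of all genes, and its exact permutation p was 0.00794 (two-sided, n = 5 per group). Rpl3, near the peptidyl transferase centre, ranged from 6.73 to 7.26 in tuft and from 7.78 to 8.28 in non-tuft libraries, with a difference of -1.08 (standard error 0.34, limma adjusted p = 0.0561). Rpl13a, used in many studies as a reference gene, had 9.51, 8.59, 8.19, 8.86 and 8.42 in tuft libraries and 9.73, 9.57, 9.43, 9.61 and 9.25 in non-tuft libraries. Only tuft library 1 reached the non-tuft range, and the difference was -0.81 (standard error 0.37, limma adjusted p = 0.198).

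The stalk proteins Rplp0, Rplp1 and Rplp2 recruit translation factors to the large subunit. Rplp0, to which the RT-qPCR values of the study were normalized, had 9.42, 9.73, 10.43, 10.75 and 11.03 in tuft libraries and 10.17, 10.31, 11.35, 10.39 and 11.16 in non-tuft libraries. The groups overlapped, with a difference of -0.41 (standard error 0.44, limma adjusted p = 0.614). Its order over the tuft libraries was unlike that of most of the set, with the lowest value in library 1 and the highest in library 5. Rplp1 had 9.46, 8.04, 7.42, 7.77 and 7.24 in tuft libraries and 9.51, 9.59, 8.26, 8.86 and 8.45 in non-tuft libraries, with a difference of -0.95 (standard error 0.49, limma adjusted p = 0.257). Rplp2 ranged from 4.42 to 6.22 in tuft and from 5.57 to 7.33 in non-tuft libraries, with a difference of -1.12 (standard error 0.50, limma adjusted p = 0.182).

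By mean RPKM, which is a level per transcript length, Rplp0 (10.48 on the log2 scale over all 10 libraries), Rps27l (10.44), Rpl32 (10.18), Rpl35 (9.68) and Rps25 (9.18) were highest. Their differences were between -0.67 (Rpl32) and 0.30 (Rps27l), and none passed the test. Rpl21 (2.42), Rpl26 (3.27), Rps27 (3.91), Rpl17 (4.95) and Rps4l (5.20) were lowest, in a set whose median mean was 7.81 against 2.48 for all genes. Rpl17 ranged from 3.35 to 5.13 in tuft and from 4.87 to 6.20 in non-tuft libraries (difference -1.38, standard error 0.48, limma adjusted p = 0.0851). The order of levels was alike in both groups (Pearson r = 0.94 between the group means over 79 genes, a description, since all genes share the same libraries).

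Of the 5 paralogs, Rpl22l1 alone passed the test. Rpl22 itself had 6.56, 6.12, 5.61, 6.75 and 5.12 in tuft and 7.23, 7.61, 7.23, 7.43 and 7.05 in non-tuft libraries (difference -1.28, standard error 0.41, limma adjusted p = 0.0589). Rpl36al had 9.27, 9.27, 8.53, 8.79 and 8.54 in tuft libraries and 8.77, 8.69, 8.67, 8.71 and 8.48 in non-tuft libraries, which overlapped (difference 0.21, standard error 0.35, limma adjusted p = 0.751). This difference was -0.29 when the libraries were scaled to equal sums without acinar markers. The main gene, Rpl36a on the X chromosome, had 7.45, 6.59, 5.77, 7.03 and 5.76 in tuft libraries and 7.76, 7.91, 7.55, 7.87 and 7.19 in non-tuft libraries (difference -1.14, standard error 0.43, limma adjusted p = 0.112).

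The difference between each paralog and its main gene was compared between the groups for 5 pairs, a test chosen after the values were seen. Rpl36al exceeded Rpl36a by 1.81, 2.68, 2.76, 1.75 and 2.79 log2 units in tuft libraries and by 1.01, 0.78, 1.12, 0.84 and 1.30 in non-tuft libraries. This excess was larger in all tuft libraries than in any non-tuft library, by 1.35 on average (standard error 0.25, exact permutation p = 0.00794, two-sided, adjusted over the 5 pairs 0.0397). Of the 50-base stretches of the coding sequence, 100% in Rpl36a and 81.6% in Rpl36al also occurred elsewhere in the genome, so the levels of this pair are uncertain where the counting could divide reads among copies. For Rps4l against Rps4x the change was 2.24 (standard error 0.76, exact permutation p = 0.0317, adjusted 0.0794), with overlapping groups. For Rpl22l1 against Rpl22 it was -0.41 (standard error 0.18, exact permutation p = 0.0635, adjusted 0.106), for Rps27l against Rps27 0.31 (standard error 0.54, exact permutation p = 0.579, adjusted 0.724), and for Rpl7l1 against Rpl7 0.01 (standard error 0.38, exact permutation p = 0.96, adjusted 0.96). Of the genes in these pairs not described above, Rps4x had a difference of -1.02 (limma adjusted p = 0.0916), Rpl7 one of -0.72 (limma adjusted p = 0.212) and Rpl7l1, whose product also acts in ribosome assembly, one of -0.72 (limma adjusted p = 0.342). Rpl39, at the peptide exit tunnel, whose paralog was not listed, had a difference of -1.25 (limma adjusted p = 0.105). Among the 5 pairs, only Rpl36al and Rpl36a had an adjusted exact permutation p under 0.05. As the test was chosen after the values were seen and ignores any pairing by mouse, this is a description.

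Rps4l, which RefSeq lists as a transcribed pseudogene, had the largest positive difference. Its values were 6.20, 4.74, 6.16, 6.36 and 5.59 in tuft libraries and 3.95, 2.45, 5.41, 5.60 and 5.53 in non-tuft libraries. Non-tuft libraries 1 and 2 were far below the other 3, which overlapped the tuft range, and the difference of 1.22 (standard error 0.62) had a limma adjusted p of 0.246. Rps27l, a paralog induced by p53, had 11.21, 11.16, 9.59, 10.64 and 10.36 in tuft and 10.24, 10.75, 10.17, 10.08 and 10.24 in non-tuft libraries, with a difference of 0.30 (standard error 0.41, limma adjusted p = 0.698), which was -0.21 with equal sums without acinar markers. Rps27 itself was listed at only 3.22 to 4.55 in tuft and 2.66 to 5.05 in non-tuft libraries, while Rps27rt, a retrogene that RefSeq also gives the synonym Rps27 and that was named after its values were seen, had 9.29 to 11.66 and 9.37 to 9.91.

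Rpl26, of the large subunit, and a copy of it elsewhere in the genome had mirrored values. It had 6.59 and 6.18 in tuft libraries 1 and 2 and 0.39, 1.37 and 0.55 in tuft libraries 3 to 5, and likewise 7.00 and 7.52 in non-tuft libraries 1 and 2 and 0.88, 1.12 and 1.05 in non-tuft libraries 3 to 5. Gm15772, a pseudogene that RefSeq also lists under the synonym Rpl26, had the opposite pattern, with 0.00, 0.00, 5.72, 6.64 and 5.73 in tuft libraries and 0.00, 0.17, 6.95, 7.57 and 6.72 in non-tuft libraries. In every library 1 of the 2 held nearly all of the signal. Gm15772 was named after its values were seen. A 50-base stretch at the start of the Rpl26 coding sequence, shown because reads of that length cannot be assigned to 1 of the 2 genes, is found without a mismatch in Gm15772 at chr5:3236431-3236480 of NCBIM37, plus strand.
Rpl26 coding bases 1 to 50: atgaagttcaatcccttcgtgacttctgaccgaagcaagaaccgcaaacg

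Of all 50-base windows of the Rpl26 coding sequence, 289 (74.3%) were identical to sequence in Gm15772. The linear values of both genes, added and returned to the log2 scale, were 6.59, 6.18, 5.73, 6.66 and 5.75 in tuft libraries and 7.00, 7.52, 6.96, 7.58 and 6.73 in non-tuft libraries. The sum no longer split libraries 1 and 2 from 3 to 5, and every non-tuft sum was above every tuft sum, with means of 6.18 (SD 0.44, n = 5) and 7.16 (SD 0.37, n = 5). Over the whole table Rpl26 was the 1 gene whose values in libraries 1 and 2 of both groups all exceeded those in libraries 3 to 5 by more than 3 log2 units, and 2 genes, Gm15772 and the splicing regulator Rbm4, did so in the opposite sense. No label names such a split as a batch.

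**Figure D3:**
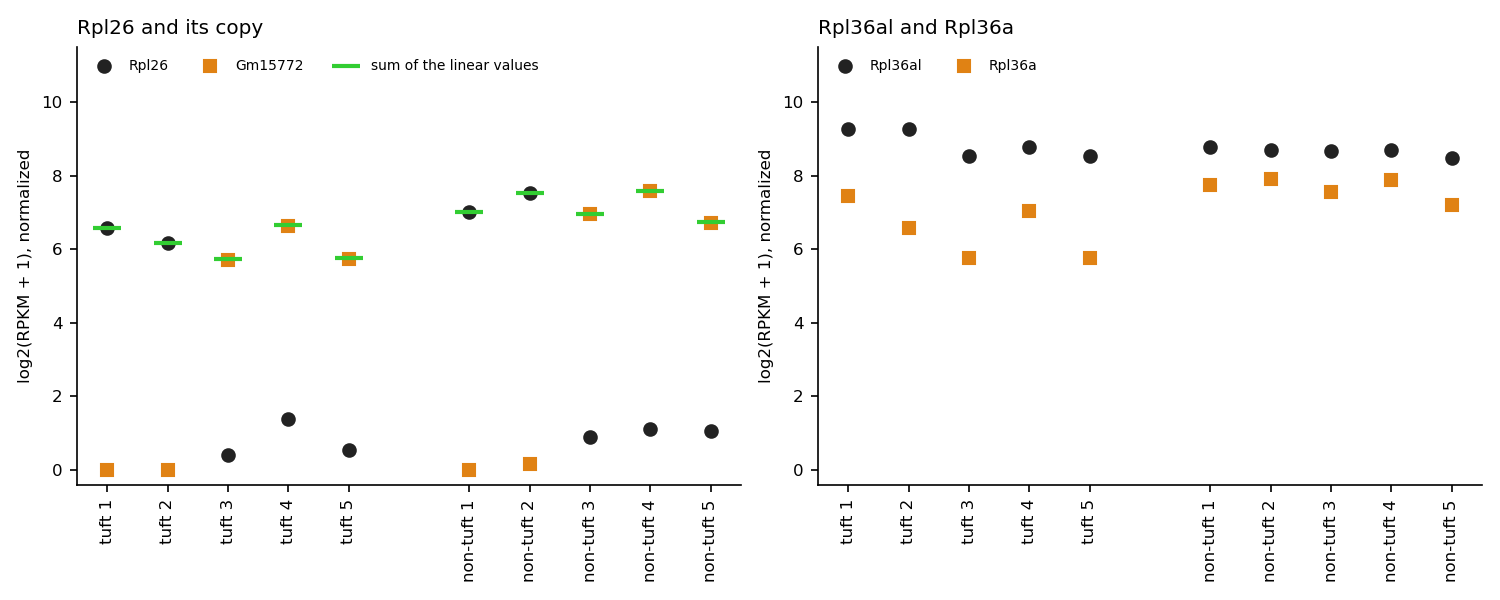
Normalized log2(RPKM + 1) by library of Rpl26 and its copy Gm15772, with the log2 of their summed linear values (left), and of Rpl36al and Rpl36a (right). Rpl26 is high only in libraries 1 and 2 of each group and Gm15772 only in libraries 3 to 5, while the gap between Rpl36al and Rpl36a is wider in each tuft library, at 1.75 to 2.79, than in the non-tuft libraries, at 0.78 to 1.30.

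Sequence sharing of this kind was common in the set. For each of the 77 genes with an annotated coding sequence, all 50-base windows were looked up in the whole NCBIM37 genome outside the gene. A median of 90.3% of a gene's windows also occurred elsewhere, and in 28 genes all of them did. Rpl21, all of whose windows occurred at 86 other places together, was listed at 1.79, 3.34, 4.12, 0.00 and 3.95 in tuft and at 0.00, 0.17, 5.32, 0.00 and 5.54 in non-tuft libraries, a spread within each group that leaves its difference of 0.44 (standard error 1.24) without a direction. Of the 6 genes that passed, Rpl12 and Rps12 had all their windows elsewhere, Rps15a 84.3%, Rps2 84.2%, Rpl22l1 81.9% and Rpl34 71.5%, so their levels are uncertain where the counting could divide reads among copies. Gm15421, a pseudogene that shares 80.6% of the Rpl22l1 windows, moved in the same direction, at 2.98 to 4.57 in tuft and 4.80 to 5.67 in non-tuft libraries. Rpl34-ps1, a pseudogene that shares 71.5% of the Rpl34 windows, had overlapping groups. It ranged from 5.05 to 7.09 in tuft and from 5.63 to 7.66 in non-tuft libraries (difference -0.76, standard error 0.51, limma adjusted p = 0.395). In tuft library 1 this copy had its highest tuft value, 7.09, where Rpl34 had its lowest, 5.10.

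The direction was also present in genes that share little sequence, a group chosen after the values were seen. In 12 genes fewer than 50% of windows occurred elsewhere. A negative difference was found in 11 of them, Rps27l being the exception, beside 49.1% of all genes. The median difference of the 12 was -0.70, beside -0.86 for the other 65. At the adjusted threshold of limma 0 of the 12 were called, beside 5.55% of all genes lower and 6.19% higher. At an unadjusted p under 0.05, 5 were lower, beside 12.2% of all genes. Rpl4, with 20.2% of windows elsewhere, had a difference of -1.02 without overlap between the groups. It ranged from 7.65 to 8.19 in tuft and from 8.49 to 9.42 in non-tuft libraries (standard error 0.37, limma adjusted p = 0.093), and Rpl8, with 8.83% of windows elsewhere, differed by -0.54 with overlapping groups (standard error 0.35, limma adjusted p = 0.372).

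The level of the set as a whole differed between tuft libraries. Its median was 7.96, 7.47, 6.82, 7.77 and 6.94 in tuft libraries 1 to 5 and 8.35, 8.40, 8.10, 8.35 and 7.98 in non-tuft libraries. Every tuft median was below every non-tuft median, but library 1 by 0.02 only. The set made up 4.78%, 3.55%, 2.36%, 4.05% and 2.75% of the summed linear values of tuft libraries and 5.26%, 5.77%, 5.01%, 5.30% and 4.69% of non-tuft libraries. Tuft library 1 exceeded non-tuft library 5 in this share, and the means were 3.5% (SD 0.975, n = 5) and 5.21% (SD 0.398, n = 5).

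Tuft libraries 3 and 5 held the lowest tuft value for 68 of the 79 genes, and tuft library 1 the highest for 52. In non-tuft cells libraries 3 and 5 held the lowest value for 49 genes. The spread between replicates was larger in tuft than in non-tuft libraries for 68 genes, with a median SD of 0.58 against 0.26, while 37.3% of all genes had the larger SD in tuft libraries. Libraries 3 and 5 of both groups also had the fewest genes at the lowest value of the library, from 1442 to 1751, against 2349 to 3753 in the other libraries. Without libraries 3 and 5 of both groups the median difference of the set was -0.55 and 1 gene, Rps2, was called lower, beside 2.19% of all genes, and within libraries 3 and 5 alone the median was -1.16. Within libraries 1 and 2 alone it was -0.62 and within libraries 3 to 5 -0.96, and with this split as a term 11 genes were called lower, beside 6.29% of all genes. These settings were chosen after seeing the data.

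**Figure D4:**
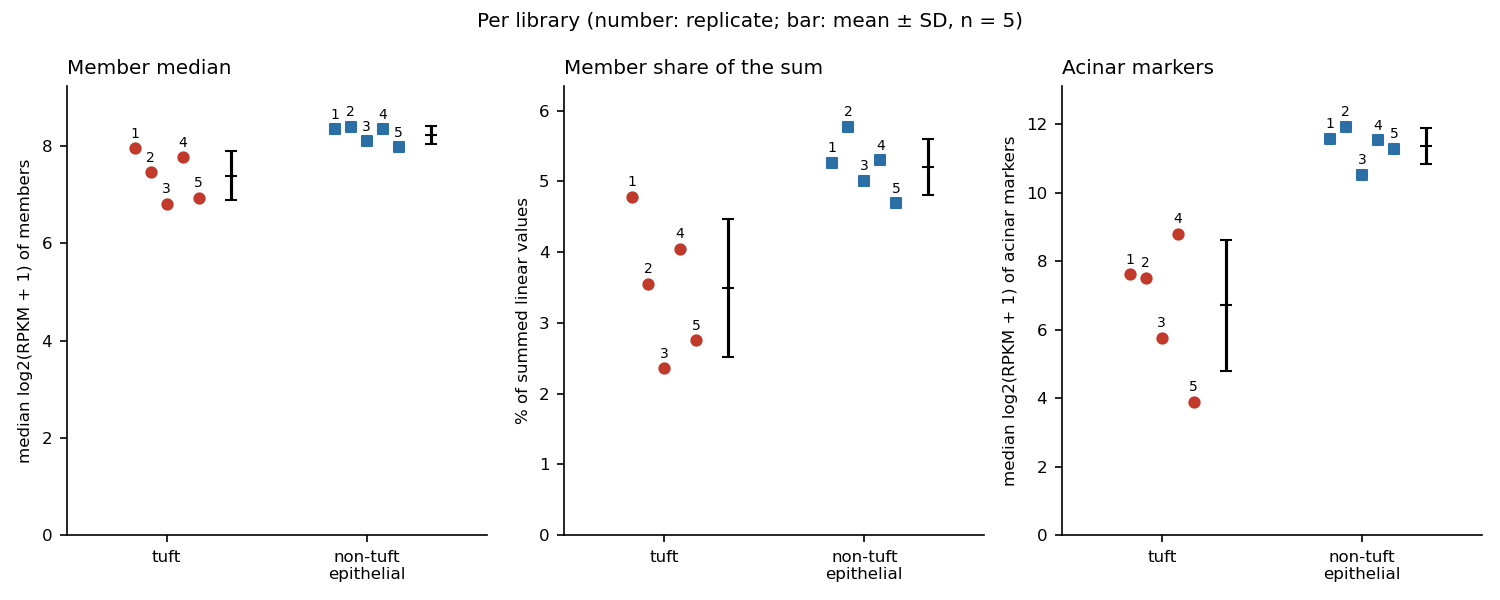
Median log2(RPKM + 1) of the ribosomal protein genes, their share of the summed linear values in percent, and the median log2(RPKM + 1) of acinar markers, for each library (numbers are replicates, bars are the mean ± SD of 5 libraries). Tuft libraries 3 and 5 are lowest in all 3 measures, and tuft library 1 comes within 0.02 of the lowest non-tuft median of the set.

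Cell type markers separated the groups as sorted and showed what else differed between them. All 21 listed tuft markers passed the test as higher in tuft cells, with library medians from 6.28 to 7.13 in tuft and from 0.00 to 4.31 in non-tuft libraries. The list includes Siglecf, the gene of the protein used for the sort, so its difference is not independent of the gate. Acinar markers, mostly digestive enzyme genes, passed as lower for 27 of 33, with library medians from 3.89 to 8.80 in tuft and from 10.52 to 11.92 in non-tuft libraries, and no marker of the list was at the lowest value in all tuft libraries. Acinar transcripts made up 30.7% to 39.7% of the summed linear values of non-tuft libraries. In tuft libraries 1 to 5 they made up 12.7%, 8.54%, 3.77%, 25.4% and 0.44%. Tuft libraries 3 and 5, lowest for the set, were also lowest in this share, but tuft library 1, highest for the set, was below library 4. Ductal markers had 2 of 12 lower and 2 higher, islet markers 5 of 18 lower and 0 higher with 5 at the lowest value in all tuft libraries, and proliferation genes 8 of 17 lower and 0 higher, with a library median of 0.00 in every tuft library and of 1.82 to 3.12 in non-tuft libraries. Leukocyte markers, of which 8 of 20 were listed, had 1 higher and 0 lower. This was Ptprc, the gene of Cd45, although both groups were sorted as Cd45-neg. It ranged from 2.74 to 4.33 in tuft and from 0.00 to 1.93 in non-tuft libraries (difference 2.72, standard error 0.49, limma adjusted p = 0.00292). Fibroblast and endothelial markers, 10 of 16 listed, also had 1 higher and 0 lower. Of all genes, 5.55% passed as lower and 6.19% as higher. The part of these cell types in the difference of the ribosomal protein genes was not tested. When every library was scaled to an equal sum without the acinar markers, the median difference of the set was -1.31, with 77 genes negative, 34 genes (43%) called lower (beside 9% of all genes) and a median of -0.34 over all genes.

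Genes that work with the ribosome were taken from lists, and they did not all share the pattern. For comparison with the list counts, 49.1% of all genes had a negative difference. At the adjusted threshold 5.55% of all genes were lower and 6.19% higher, and at an unadjusted p under 0.05 these shares were 12.2% and 12.9%. In the list of ribosomal proteins outside the name rule, all 4 listed genes had a negative difference, with a median of -0.93. In limma 0 of them passed the test, and 2 had an unadjusted p under 0.05. Rpsa, which also serves as a laminin receptor, had 4.82, 4.38, 3.40, 4.21 and 3.15 in tuft and 5.57, 6.04, 4.87, 5.36 and 4.51 in non-tuft libraries (difference -1.28, standard error 0.45, limma adjusted p = 0.092). Gnb2l1, which encodes the scaffold protein RACK1 on the small subunit, ranged from 6.54 to 7.82 in tuft and from 7.93 to 8.59 in non-tuft libraries without overlap (difference -1.19, standard error 0.39, limma adjusted p = 0.07). Fau, made as a fusion with a ubiquitin-like protein, had a difference of -0.06 (limma adjusted p = 0.948). Rps3a1, in no list and named after its values were seen, ranged from 8.06 to 8.65 in tuft and from 8.56 to 9.07 in non-tuft libraries, a difference of -0.42 (limma adjusted p = 0.488).

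The list of 14 other genes with TOP messages, mostly translation factors, had a negative difference for all 14, with a median of -0.94. Of these, 4 passed the test as lower, beside 5.55% of all genes. Eif4b, a cofactor of the helicase that unwinds the 5′ end of mRNA, had 4.12, 3.69, 3.35, 3.97 and 4.03 in tuft and 5.38, 5.64, 5.48, 5.83 and 5.14 in non-tuft libraries. It was lower in every tuft library, by 1.67 (standard error 0.35, limma adjusted p = 0.00723). Npm1, a nucleolar chaperone and no translation factor, ranged from 6.03 to 7.29 in tuft and from 7.96 to 8.80 in non-tuft libraries, lower by 1.84 (standard error 0.38, limma adjusted p = 0.00683). The elongation factor subunits Eef1g and Eef1d were the other calls, lower by 1.27 and 1.35 (limma adjusted p = 0.027 and 0.0449).

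Of 61 listed ribosome biogenesis factors, which build the ribosome, 38 had a negative difference, with a median of -0.22. At the adjusted threshold 3 of the 61 were lower and 1 was higher, beside 5.55% and 6.19% of all genes. Their library medians were 2.69 to 2.94 in tuft and 3.07 to 3.38 in non-tuft libraries, without overlap. Rrs1, an assembly factor of the large subunit, had 0.50, 0.00, 1.49, 2.26 and 0.46 in tuft and 3.06, 2.65, 3.15, 3.32 and 3.10 in non-tuft libraries (difference -2.12, standard error 0.46, limma adjusted p = 0.00881). Tsr1, which acts in the maturation of the small subunit, went the other way, with 7.21, 6.74, 7.49, 6.96 and 7.48 in tuft and 4.86, 3.22, 4.48, 5.94 and 6.03 in non-tuft libraries (difference 2.27, standard error 0.53, limma adjusted p = 0.0131). Neither gene overlapped between the groups. For the 19 genes of RNA polymerase I, which transcribes ribosomal RNA, the median was -0.22 and 0 passed in limma, 1 having an unadjusted p under 0.05. This was Twistnb, a subunit of the enzyme (difference -1.21, limma adjusted p = 0.108).

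Of 20 listed S6 kinases and regulators of TOP messages, 13 had a negative difference, with a median of -0.14. Of the 20, 2 passed as lower, beside 5.55% of all genes. Eif4ebp1, the mTOR-regulated inhibitor of cap-dependent translation, had 3.77, 3.89, 3.71, 5.04 and 3.90 in tuft and 6.35, 6.09, 5.71, 6.53 and 6.20 in non-tuft libraries (difference -2.11, standard error 0.39, limma adjusted p = 0.00334). Larp1, which binds TOP messages, ranged from 1.95 to 3.04 in tuft and from 3.45 to 4.70 in non-tuft libraries (difference -1.67, standard error 0.40, limma adjusted p = 0.0156). The 77 mitochondrial ribosomal protein genes, whose products serve the separate ribosomes of mitochondria, had a median difference of 0.03, with 37 negative, 1 higher and 0 lower at the adjusted threshold of limma, and 9 higher and 3 lower at an unadjusted p under 0.05. Their library medians were 4.96 to 5.46 in tuft and 5.02 to 5.25 in non-tuft libraries, so the ranges overlapped. Housekeeping genes had a median of -0.04 over 20 genes, with 1 higher and 0 lower.

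**Figure D5:**
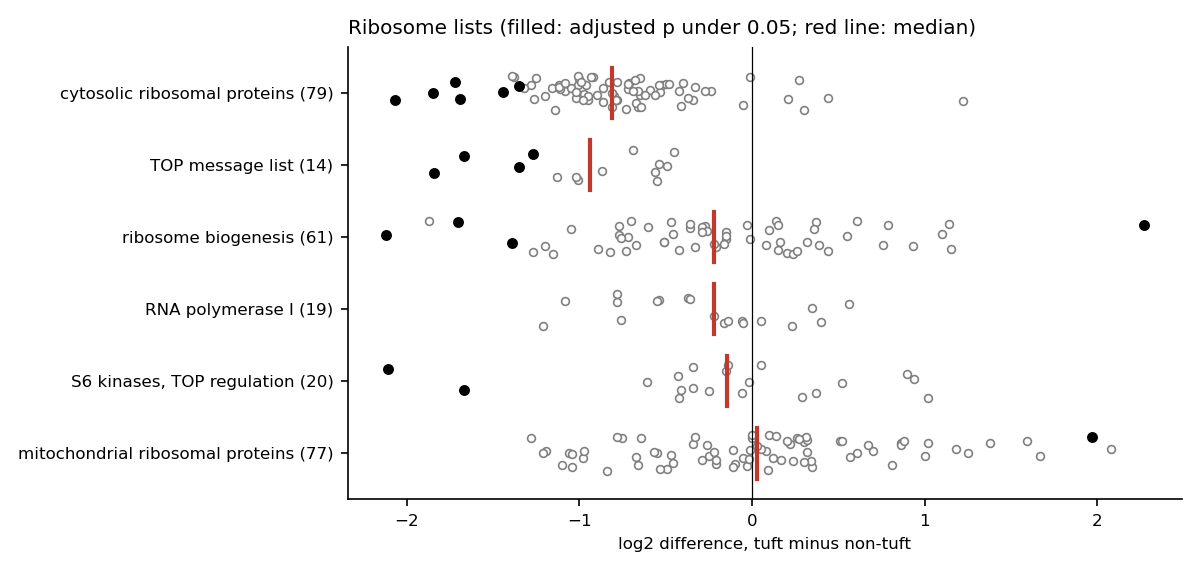
Log2 difference of tuft minus non-tuft for every listed gene of 6 lists (number of genes in brackets), with filled symbols for an adjusted p under 0.05 and red lines at the medians. The cytosolic ribosomal proteins and the TOP message list have medians of -0.81 and -0.94, and the mitochondrial ribosomal proteins a median of 0.03.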

How the data were processed

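Reads of 50 bases, from 1 end, had been aligned by the authors with HISAT2 (mm9) and turned into RPKM values by StringTie and Ballgown. Genes of low variance were dropped, and the deposited log2 values were quantile normalized. The lowest value of 0.00 in 9 of 10 libraries shows that 1 had been added before the log2. How reads with several matches were handled is not given in the sources used here. The deposited columns of the authors' own comparison (fold ratio, p-value, false discovery rate) were not used. Raw counts were not used, so depth is unknown and no counting interval is given. One name occurs on 2 rows of the table, and 18 names had become dates.

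Groups and replicate numbers came from the sample titles (5 tuft, 5 non-tuft epithelial libraries). The fit was made in R 4.3.3 with limma 3.58.1 (lmFit, then eBayes), with no covariate and Benjamini-Hochberg adjustment over all 12160 genes, and was tested on simulated data. Exact permutation tests enumerated all 252 assignments of 5 of the 10 libraries. Genes named were those past the test, the largest differences, the highest and lowest means, the largest SDs, the stalk, paralogs with main genes, Rpl13a, proteins outside the name rule and the 2 smallest p-values of each list. Some genes that entered these counts are not reported here by name. The members and lists were chosen with earlier results of these data known. Shared windows used the GENCODE M1 annotation and the NCBIM37 genome. Tables were made with Python 3.11.15, pandas 2.3.3, numpy 2.4.6, scipy 1.17.1 and matplotlib 3.10.9. Alternatives were the replicate block, other added constants, a minimum mean, other centrings or scaling, trend and robust settings, other thresholds and each library left out.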

Additional observations from a re-analysis of the deposited data

Results flagged for a closer look

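Of 68 groups of 5 libraries examined for a library that stands apart, 1 was marked. Rps27l in non-tuft library 2 had a log2 value of 10.75, while the other 4 non-tuft libraries lay between 10.08 and 10.24, so that the gap was 0.76 of the whole range. Chance marks about 1 in 20 groups. The value lies within the tuft range of Rps27l.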

How the results depend on the processing

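Apart from centring on the set itself, which fixes its median, the median difference stayed negative under every setting tried and 0 genes were called higher. Over the 28 genes named by rule and the 18 alternative fits, without treat or other thresholds, 33 gene results lost their call, 29 gained one and 0 called results changed direction. The count of lower genes, 6 in the fit reported (7.59% of the set, beside 5.55% of all genes), was 3 with 0.1 added (3.8%, beside 4.88%), 31 with 10 added (39.2%, beside 5.23%), 12 among genes averaging 2 or more on the log2 scale (15.2%, beside 7.14%), 3 when centred on housekeeping genes (3.8%, beside 4.72%), 34 with equal sums without acinar markers (43%, beside 9%), 25 with trend and robust settings (31.6%, beside 5.96%) and 2 at an adjusted p under 0.01. It was 2 to 8 with 1 library left out, beside 3.97% to 5.43% of all genes (8 without tuft library 1, beside 4.9%, 2 without tuft library 3 or 5, beside 3.97% and 4.02%, and 3 without tuft library 2 or any of non-tuft libraries 1 to 4, beside 4.25% to 5.18%). Of the settings added after seeing the data, it was 1 without libraries 3 and 5 (beside 2.19%), 0 in libraries 1 and 2 alone, where 0 of all genes passed, 2 in libraries 3 to 5 (beside 2.25%) and 11 with that split as a term (13.9%, beside 6.29%). The count past a 4-fold change was 1 in the fit reported (1.27%, beside 3.99% of all genes lower and 4.32% higher). It was 0 with 10 added, 4 with equal sums without acinar markers, 6 at a 2-fold threshold, 0 with treat against 2-fold, 0 in libraries 1 and 2 alone and 0 to 2 with 1 library left out (0 without tuft library 2 or non-tuft library 3 or 5, and 2 without tuft library 1). The share of all genes is not given for these settings or at an adjusted p under 0.01, so those counts cannot be set against all genes. The median was -1.31 with equal sums without acinar markers and -0.94 to -0.67 with 1 library left out. Without the acinar markers in the sum, the share of the set was 8.28% in non-tuft libraries and 4% in tuft libraries, against 5.21% and 3.5% with them. The causes were not tested.

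With the replicate number as a block 7 genes were called lower (8.86%, beside 5.58% of all genes) and the median was -0.81. Of the genes named by rule, Rpl34 was then not called (limma adjusted p = 0.059) and Rpl17 was (limma adjusted p = 0.0395). The 5 mice gave both groups and the numbers are shared in the labels, which do not say that a number marks the same mouse. Deviations of same-numbered libraries correlated at 0.12, 0.08, 0.11, 0.06 and 0.24 over all genes, and 3 of 5 tuft and 4 of 5 non-tuft libraries correlated best with their own number. The fit without the block was kept because 2 of these correlations were under 0.1, a limit set by choice. This limit does not show that the libraries are unpaired. The fit reported and the exact permutation p-values therefore take no account of any pairing by mouse, which the labels do not settle. Unknown depth limits what the low values of Rpl21 and Rps27 can show.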
